A study of Mus musculus with 12 samples.

Results

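The genes described here encode ligands and receptors of the TNF (tumour necrosis factor) superfamily that act between lymphocytes: the ligands Tnfsf14, Ltb, Lta and Fasl, and the receptors Tnfrsf18, Tnfrsf4, Tnfrsf9, Cd27 and Fas. Every probe set whose platform annotation gave 1 symbol equal to one of these 9 names was taken. This gave 13 probe sets of the 22626 on the array that were not controls, and 9 of the 12394 genes that a probe set names alone. RNA was measured in BW5147, a thymic T lymphoma cell line of the mouse, on 12 Affymetrix arrays, 2 in each of 6 groups. The cells were unstimulated, or received Dex (dexamethasone at 100 ng/ml, a glucocorticoid drug), the cytokine IL-9 or the chemokine CCL1 (100 U/ml in the labels, stated in 1 phrase for both), or Dex together with either of these. All treatments lasted 8 hours, and all groups were the same unmodified line, so no normal T cell was measured. Arrays of a group are numbered 1 and 2 in the labels, which do not say whether the numbers are separate cultures, so the p-values rest on a spread between arrays that may be purely technical.

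TNF superfamily ligands are mostly membrane proteins that bind as trimers to receptors on a neighbouring cell. Tnfrsf18 (GITR), Tnfrsf4 (OX40), Tnfrsf9 (4-1BB) and Cd27 recruit TRAF adaptors and signal to NF-kB, and on T cells they add a costimulatory signal to that of the antigen receptor. Tnfsf14 (LIGHT) binds the herpesvirus entry mediator and the lymphotoxin beta receptor, and Lta and Ltb form lymphotoxin. Fas carries a death domain, and its ligand Fasl starts apoptosis through caspases. Glucocorticoids act through a nuclear receptor, kill many thymic cells and raise GITR in T cells, for which the receptor was named.

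Several of the genes lie side by side in the genome. In the RefSeq gene order Tnfrsf18 neighbours Tnfrsf4, Tnf lies between Ltb and Lta, Tnfsf14 neighbours Cd70 and C3, and Fasl neighbours Tnfsf18, the gene of the GITR ligand. The stretches upstream of Tnfsf14 and Tnfrsf18 are shown because every call among the 9 genes, in any of the 6 comparisons below, was theirs. Both are the 250 bases before the start in RefSeq (GRCm38.p6), written from 5′ to 3′ on the gene's own strand, with the AP-1 motif TGAGTCA in capitals. The arrays name no build, and no array value was tied to these positions.
Tnfsf14, chr17:57194182-57194431, minus strand: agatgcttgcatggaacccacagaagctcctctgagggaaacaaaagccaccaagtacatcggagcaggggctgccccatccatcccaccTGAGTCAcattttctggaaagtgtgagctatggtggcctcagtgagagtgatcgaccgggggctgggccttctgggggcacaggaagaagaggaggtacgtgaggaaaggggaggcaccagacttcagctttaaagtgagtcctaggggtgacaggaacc
Tnfrsf18, chr4:156026072-156026321, plus strand: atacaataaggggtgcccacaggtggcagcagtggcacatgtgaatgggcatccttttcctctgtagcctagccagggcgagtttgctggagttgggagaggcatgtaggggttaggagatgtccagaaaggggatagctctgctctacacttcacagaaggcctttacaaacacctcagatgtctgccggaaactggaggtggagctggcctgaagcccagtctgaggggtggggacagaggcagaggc

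Windows were found for 9 of the 9 genes, 10 windows in all, and were searched on both strands. The glucocorticoid receptor palindrome, AGAACA and TGTTCT with 3 bases of any letter between them, was in 0 of the 10 windows and in 0.00913% of all 32851 windows of the same length. Its single hexamer AGAACA, which is also part of the palindrome, was in 0 of the 10 windows, against 16.1% of all. The AP-1 motif was in 3 of the 10, against 4.46% of all, and began 160 bases before the start of Tnfsf14, 211 before that of Fas and 15 before that of Tnfrsf9. The NF-kB consensus was in 2 of the 10, against 7.25% of all. These were the windows of Ltb and Tnfrsf9, and the pair of matches in Tnfrsf9 overlap. A match describes letters only, and a window without a match says nothing of the factor.

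The Dex labels were first set beside glucocorticoid targets. Of 8 such targets 5 passed the filter on low signals: Tsc22d3 (GILZ), Fkbp5, Per1, Dusp1 and Ddit4. The mean of their centred log2 levels was -0.951 to -0.835 in the arrays labelled without Dex and numbered 2. In the arrays labelled without Dex and numbered 1 it was 0.186 to 0.505, and in the 6 Dex arrays 0.143 to 0.475. The arrays labelled without Dex and numbered 1 therefore held these targets at the level of Dex-treated cells, so Dex was compared within each number. Whether these 3 arrays came from cells exposed to Dex, or were exchanged, cannot be told apart from the files, so each difference between the numbers below is one between labelled arrays. Dex 2 stood somewhat apart, with a median correlation of 0.977 with the other arrays against 0.983 to 0.988 for the others. Of 9 T lineage markers on the array, Cd3d, Cd3e, Cd3g and Thy1 passed the filter, with the signal of Cd3e at 150 to 298 and that of Thy1 at 878 to 1525. Cd247, Cd5, Ptcra, Cd4 and Cd8a were below the filter. The summed signal of 9 T lineage markers was 1751.5 to 2459.3. Markers of B cells, NK cells and erythroid cells were all below the filter, the summed signal of 4 myeloid markers was 13.96 to 34.1 and that of 3 fibroblast markers 1.59 to 27.5. No marker gene was called by limma in any of the 6 comparisons, and at most 1 of a list had an unadjusted p below 0.05. In bulk RNA, fewer cells that express a gene and less RNA per cell cannot be told apart.

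Tnfsf14 and Tnfrsf18 were called higher with Dex in the arrays numbered 2. The ligand rose by 1.77 log2 in probe set 1450298_at and the receptor by 1.46 log2, and in both the signals with and without Dex did not overlap. In probe set 1421588_at the ligand rose by 1.15 log2, a call that was lost when some single arrays were left out. The arrays without Dex in this test were unstimulated 2 and IL-9 2. In the pairs with CCL1, whose array without Dex entered no test, the rise was smaller, 0.48 in 1450298_at and 0.31 for the receptor. Tnfrsf4, Cd27 and Ltb did not pass the test. No gene of the family passed it in the arrays numbered 1, and with Dex averaged over both numbers none of them was called. The comparison within each number was chosen with earlier results of these data known. Its p-values thus do not come from a test fixed before the data were seen. All differences are of log2(signal + 16), a scale that understates folds of low signals, and adjusted p-values come from limma, adjusted by Benjamini and Hochberg's method for the 13575 probe sets that passed the filter. A probe set is called when its adjusted p is below 0.05.

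Of the 13 probe sets 6 passed the filter, those of Tnfsf14 (2 probe sets), Tnfrsf18, Tnfrsf4, Cd27 and Ltb. With Dex in the arrays numbered 2, 3 of the 6 were called, all upwards, and the background was 0.597% of all probe sets tested (69 up and 12 down). Tnfsf14 gave 2 of the 3 calls. The members were chosen with earlier results of these data known, so their share is no independent contrast with the background. The median difference of the 6 was 0.72, and that of all probe sets -0.012. Within number 1, 0 of the 6 were called by limma, 0 had an unadjusted p below 0.05, and their median was 0.026. The background was 0% there, with 339 probe sets at an unadjusted p below 0.05.

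Tnfsf14 was read by 2 probe sets. In probe set 1450298_at the signals numbered 2 were 11.8 in unstimulated cells, 18.6 with IL-9 and 11.9 with CCL1. With Dex they were 91.8 alone, 106 with IL-9 and 22.9 with CCL1. The 3 arrays without Dex were the lowest of all 12, although Dex with CCL1 came close to them. Those numbered 1 had signals of 79.5, 87.7 and 34.9 without Dex and 81.4, 90.5 and 30.9 with Dex, in the same order of ligands. These overlapped, and in both conditions the CCL1 array was the lowest.

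The Dex difference of Tnfsf14 in the arrays numbered 2 was 1.77 ± 0.17 (SE, 95% interval 1.39 to 2.15), an adjusted p of 0.000417, and 3.41-fold on the scale of signal plus 16. Within number 1 it was -0.018 ± 0.15 (95% interval -0.35 to 0.31, adjusted p = 1.00). The difference between these effects was 1.79 ± 0.23 (95% interval 1.29 to 2.29), with an adjusted p of 0.00588. With the 3 arrays labelled without Dex and numbered 1 left out, the difference within number 2 was 1.81 and its adjusted p 0.00433. Pair by pair, Dex minus no Dex was 1.95 without ligand and 1.82 with IL-9 in number 2. It was 0.48 with CCL1, where the array CCL1 2 entered no test, because it is registered under another array platform, with the same 22690 probe sets and a table of its own. Each pair that uses CCL1 2 thus compares arrays of different platform records. The 3 pairs of number 1 gave 0.028, 0.038 and -0.12.

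The other Tnfsf14 probe set, 1421588_at, gave the same direction at lower signals. They were, for number 2, 14.8, 2.23 and 0.502 without Dex, in unstimulated, IL-9 and CCL1 cells, and 42.6, 36.1 and 13.02 with Dex. Here the unstimulated array lay above Dex with CCL1, so the groups overlapped. For number 1 the signals were 49.6, 52.0 and 26.3 without Dex and 50.6, 42.7 and 25.8 with Dex. The Dex difference was 1.15 ± 0.20 in number 2 (95% interval 0.72 to 1.59, adjusted p = 0.0257) and -0.069 in number 1 (95% interval -0.45 to 0.31). The call in number 2 was lost when Dex 2, Dex+IL-9 1, Dex+IL-9 2, IL-9 1 or IL-9 2 was left out (without IL-9 2 it was 0.82, adjusted p = 0.353). It was also lost with no filter (adjusted p = 0.0909), with a pseudocount of 1 (2.35, adjusted p = 0.0520), and with the 3 arrays labelled without Dex and numbered 1 left out (1.16, adjusted p = 0.0794).

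**Figure D1:**
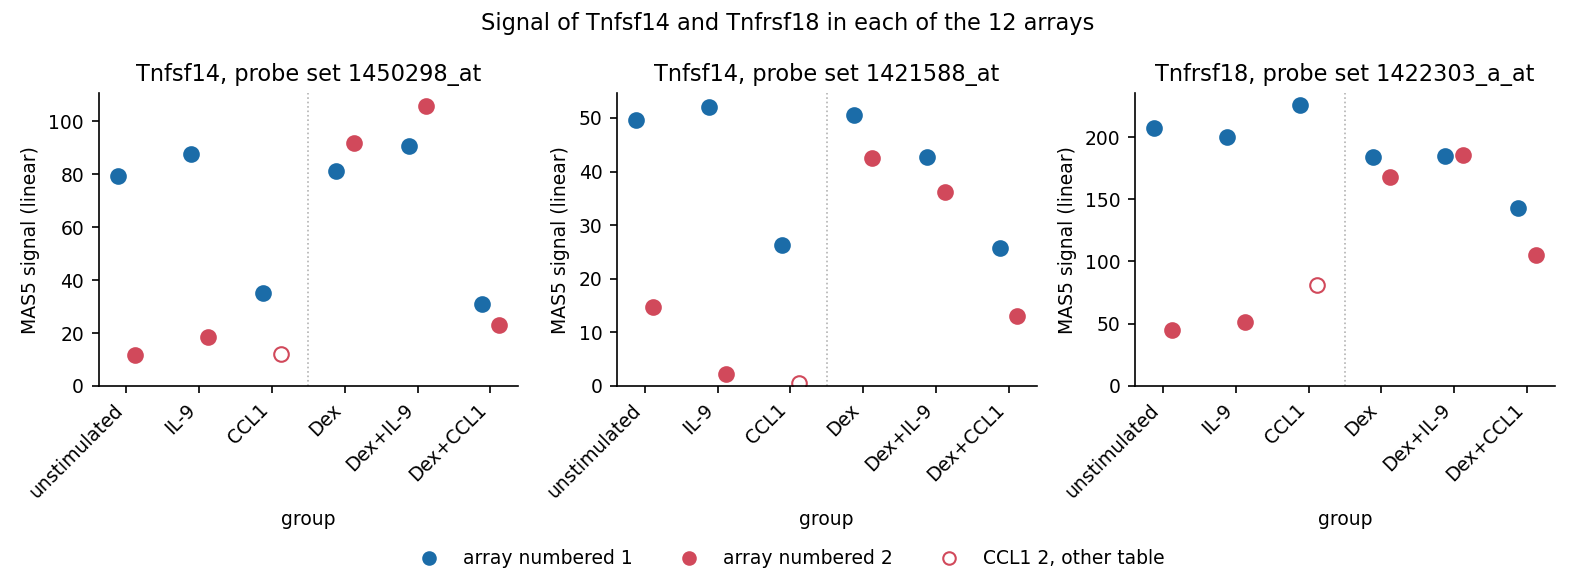
MAS5 signal (linear axis) of both Tnfsf14 probe sets and of Tnfrsf18 in each of the 12 arrays, by group, with arrays numbered 1 in blue and numbered 2 in red and an open symbol for CCL1 2, the array of the other platform record. The blue points without Dex lie near the Dex points, and the red points without Dex lie low (11.8 to 18.6 for Tnfsf14 in 1450298_at, 44.9 to 81.4 for Tnfrsf18). Tnfsf14 is low in every CCL1 group. In 1450298_at, however, CCL1 2 is no lower than unstimulated 2 (11.9 against 11.8).

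Tnfrsf18, the receptor GITR, was called higher with Dex in number 2 as well. Its signals in the arrays numbered 2 were 44.9 in unstimulated cells, 51.4 with IL-9 and 81.4 with CCL1, and with Dex 168, 186 and 105. The 3 arrays without Dex were again the lowest of the 12. For number 1 they were 207, 200.4 and 226 without Dex and 184, 185 and 143 with Dex, so that the arrays without Dex were the higher ones.

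The Dex difference of Tnfrsf18 in the arrays numbered 2 was 1.46 ± 0.18 (95% interval 1.08 to 1.84), with an adjusted p of 0.00201, 2.75-fold on the scale of signal plus 16. In the arrays numbered 1 it was -0.29 ± 0.15 (95% interval -0.62 to 0.042, not called), and the difference between the effects was 1.75 ± 0.23 (95% interval 1.24 to 2.26, adjusted p = 0.00772). Without the 3 arrays labelled without Dex and numbered 1 the difference within number 2 was 1.53, with an adjusted p of 0.00401. The pairs of number 2 gave 1.59 without ligand, 1.58 with IL-9 and 0.31 with CCL1. Those of number 1 gave -0.16, -0.11 and -0.61, all below 0.

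In the comparison of the Dex differences between numbers, which rests on the doubted arrays numbered 1, 2 of the 6 probe sets were called, both higher in number 2 (1450298_at of Tnfsf14 and that of Tnfrsf18), against a background of 0.206%. Tnfsf14 1421588_at differed by 1.22 ± 0.26 and was not called (adjusted p = 0.137). Both calls depended on single arrays. Without unstimulated 2 the adjusted p was 0.0550 for Tnfsf14 and 0.0575 for Tnfrsf18. Without Dex+CCL1 1 that of Tnfrsf18 was 0.0639, and with CCL1 2 added the differences were 1.43 (adjusted p = 0.103) and 1.45 (adjusted p = 0.0722).

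**Figure D2:**
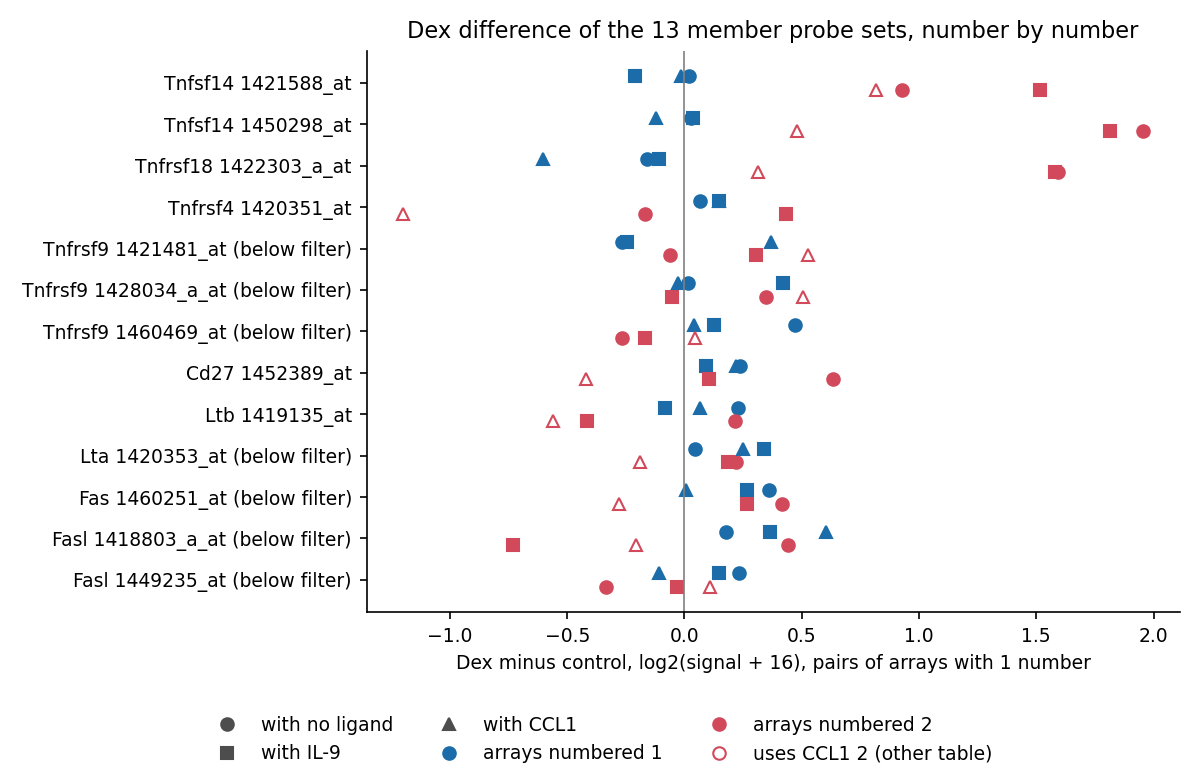
Dex minus no Dex in log2(signal + 16) for each pair of arrays with 1 number, for all 13 probe sets of the 9 genes, with the ligand given by the symbol and the number by the colour. For Tnfsf14 and Tnfrsf18 the number 2 pairs without ligand and with IL-9 lie at 0.93 to 1.95 and the number 1 pairs at -0.61 to 0.038. Their number 2 pairs with CCL1 lie at 0.31 to 0.81.

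The arrays labelled without Dex were also compared with each other, number 2 minus number 1. This comparison shares these arrays with both Dex comparisons above and is no separate support for them. The limit given above for the choice of members holds here too. Here 3 of the 6 probe sets were called, all lower in number 2, against a background of 0.796% (23 up and 85 down). Their median was -0.86, and that of all probe sets 0.020. Tnfrsf18 was lower by 3.79-fold on the scale of signal plus 16 (-1.92 ± 0.18, adjusted p = 0.000182). Tnfsf14 was lower by 3.40-fold in 1450298_at (-1.76 ± 0.17, adjusted p = 0.000334) and by 1.52 log2 in 1421588_at (-1.52 ± 0.20, adjusted p = 0.00270). Without IL-9 2 the last was not called (-1.19, adjusted p = 0.0746). In the same comparison 4 of the 5 glucocorticoid targets were called lower in number 2, and 5 of 5 were called higher with Dex in number 2. The levels of these targets were the reason to split Dex by number, so their calls are no separate support. What differed in treatment or handling between the numbers was not tested.

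**Figure D3:**
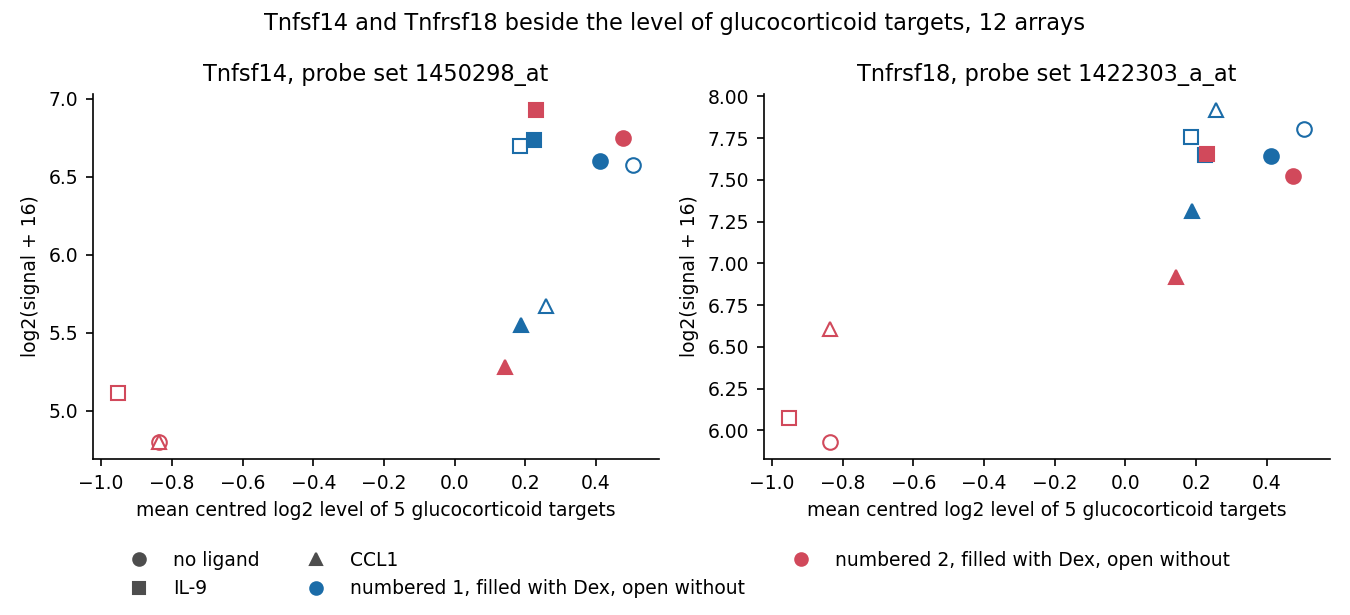
log2(signal + 16) of Tnfsf14 (1450298_at) and Tnfrsf18 in the 12 arrays against the mean centred log2 level of 5 glucocorticoid targets, with filled symbols for Dex and triangles for CCL1. The 3 arrays numbered 2 without Dex stand apart at the left (-0.951 to -0.835), and among the other 9 the 3 CCL1 arrays are the lowest for Tnfsf14, at signals of 22.9 to 34.9 against 79.5 to 106.

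The other measured members did not pass the test for Dex in either number. Tnfrsf4, the receptor OX40 and the genomic neighbour of Tnfrsf18, had signals of 17.5 and 22.8 in unstimulated cells, 19.1 and 18.6 with Dex, 20.2 and 17.8 with Dex and IL-9, 24.9 and 1.05 with Dex and CCL1, 16.6 and 9.06 with IL-9, and 20.9 and 23.1 with CCL1. Except for 1.05 in Dex+CCL1 2 and 9.06 in IL-9 2, its arrays lay between 16.6 and 24.9. The Dex difference in number 2 was -0.13 (95% interval -0.76 to 0.49, adjusted p = 0.902).

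Ltb, the membrane-anchoring chain of lymphotoxin, had signals of 15.96 and 20.2 in unstimulated cells, 21.4 and 26.0 with Dex, 11.1 and 11.1 with Dex and IL-9, 21.2 and 8.41 with Dex and CCL1, 12.7 and 20.2 with IL-9, and 19.6 and 20.0 with CCL1. Arrays with and without Dex overlapped, and the Dex difference in number 2 was -0.26 (95% interval -0.74 to 0.23, adjusted p = 0.717).

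Cd27, a receptor whose ligand is Cd70, lay near the filter. Its signals were 5.70 and 6.19 in unstimulated cells, 9.59 and 18.4 with Dex, 6.15 and 2.04 with Dex and IL-9, 11.03 and 6.15 with Dex and CCL1, 4.79 and 0.773 with IL-9, and 7.23 and 13.6 with CCL1. Dex 2 was the highest, and arrays with and without Dex overlapped. The Dex difference in number 2 was 0.30 (95% interval -0.17 to 0.76, adjusted p = 0.649), and 0.026 without Dex 2.

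The remaining 7 probe sets, of Tnfrsf9, Lta, Fas and Fasl, did not pass the filter, whose bound corresponds to a signal of 6.32. The lowest, median and highest signals of Fas were 0.22, 2.96 and 8.16. Those of its ligand Fasl were 0.109, 2.31 and 10.8 in 1418803_a_at and 0.187, 2.72 and 7.79 in 1449235_at. For both genes most arrays thus lay below the bound of the filter. Lta, the soluble lymphotoxin, had 0.488, 3.23 and 11.7, with the highest in CCL1 2. Tnfrsf9 had 0.354, 5.75 and 18.2 in 1421481_at, with the highest in Dex+CCL1 2. Its other probe sets reached 7.57 and 8.47. With no filter, 0 of these 7 probe sets were called by limma in any of the 6 comparisons, and the lowest adjusted p was 0.564, for Dex in number 2. Differences in these genes were not detectable at these signals.

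Tnfsf14 signals were lower with CCL1 in the 3 pairs of arrays whose control signal was high, but the planned test, averaged over Dex conditions, did not call the gene. Of the 6 probe sets 0 were called by limma in that test and 0 had an unadjusted p below 0.05. The background was 0.00737%, 1 probe set, with 760 at an unadjusted p below 0.05. The median of the 6 was -0.17, and that of all probe sets -0.017.

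The signals of Tnfsf14 1450298_at with and without CCL1 were 34.9 and 79.5 in number 1 without Dex, 30.9 and 81.4 in number 1 with Dex, and 22.9 and 91.8 in number 2 with Dex. In number 2 without Dex they were 11.9 and 11.8. The pairs thus differed by -0.91, -1.05, -1.47 and 0.0036. In 1421588_at the same pairs differed by -0.63, -0.67, -1.01 and -0.90, below 0 in 4 of 4. The last rests on the signal of 0.502 in CCL1 2 against 14.8.

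In the planned test the CCL1 difference of Tnfsf14 was -0.64 ± 0.42 in 1450298_at (95% interval -1.56 to 0.28, adjusted p = 0.932) and -0.47 ± 0.40 in 1421588_at (adjusted p = 0.934). With each array left out in turn these values were -1.08 to -0.19 and -0.74 to -0.19, with the lowest and highest of 1450298_at without unstimulated 2 and without unstimulated 1. That model has 1 mean per group, so the distance between numbers counts as spread. In it CCL1 1, the only CCL1 array without Dex, is set against the mean of unstimulated 1 and unstimulated 2. The distance between numbers therefore also enters the value itself. A model with Dex split by number was added after the data were seen. It called 0.324% of all probe sets for CCL1 and 1 of the 6, Tnfsf14 1450298_at, at -1.12 ± 0.15 (95% interval -1.44 to -0.80, adjusted p = 0.0120), 2.18-fold lower on the scale of signal plus 16. The probe set 1421588_at differed by -0.86 ± 0.17 there and was not called (adjusted p = 0.0645). With each array left out in turn, the value of 1450298_at was -1.25 to -0.95 and its adjusted p 0.0164 to 0.106. The call was lost without unstimulated 1, Dex 1, Dex+CCL1 1, Dex+CCL1 2 or CCL1 1. With CCL1 2 added it was -0.86 (adjusted p = 0.0655), while 1421588_at was then called (-0.80, adjusted p = 0.0286). With the 3 arrays labelled without Dex and numbered 1 left out, the difference was -1.23 and not called (adjusted p = 0.200).

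Tnfrsf18 did not share this pattern in every pair. With CCL1 it differed by 0.12 and 0.68 without Dex, in numbers 1 and 2, and by -0.33 and -0.61 with Dex, and the test of this contrast between conditions was not run. Its average was 0.29 ± 0.44 (95% interval -0.66 to 1.25, adjusted p = 0.962) in the planned test, -0.18 to 0.76 with each array left out in turn, and -0.26 ± 0.15 (adjusted p = 0.576) with Dex split by number. The planned average uses 1 CCL1 array without Dex, which is numbered 1, against the mean of unstimulated 1 and unstimulated 2. The signals of Tnfrsf18 in those controls were 207 and 44.9, so the distance between numbers enters the planned value and its sign. The averages of Tnfrsf4, Cd27 and Ltb were -0.18, -0.098 and -0.17, and none was called.

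**Figure D4:**
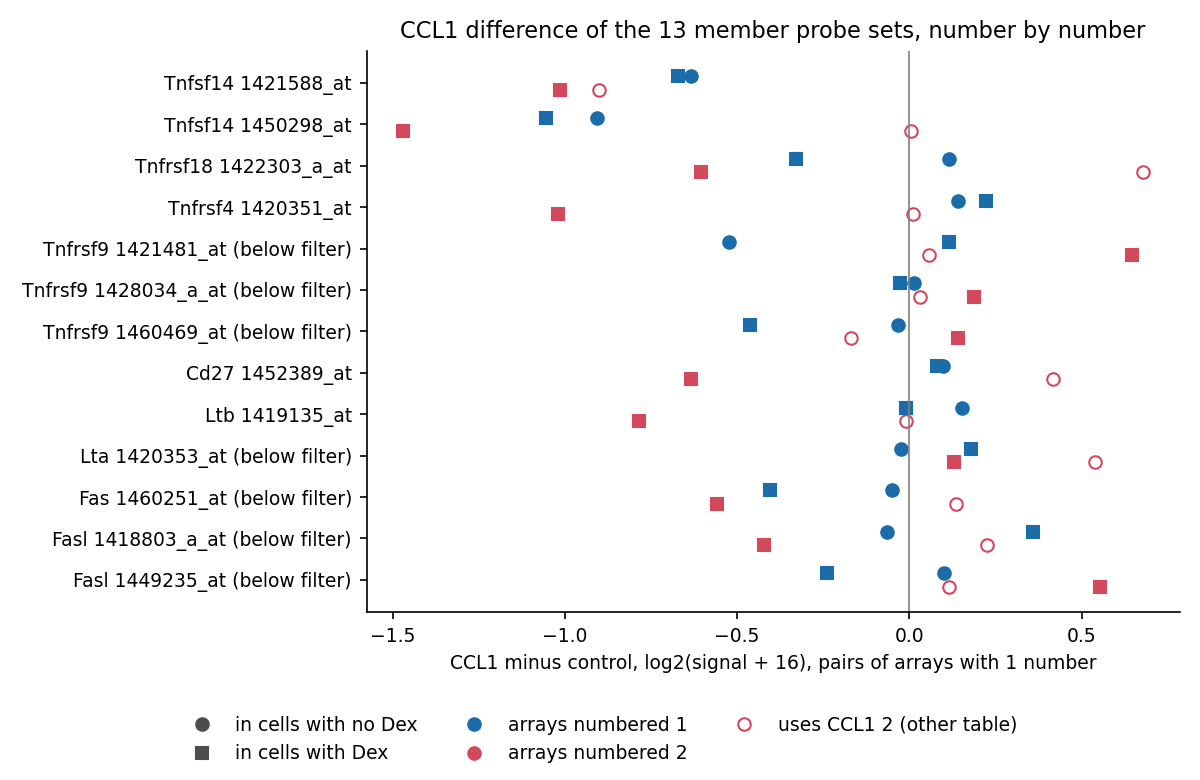
CCL1 minus its control in log2(signal + 16) for each pair of arrays with 1 number, for all 13 probe sets, with squares for cells with Dex and an open symbol for the pair that uses CCL1 2. Both Tnfsf14 probe sets lie at -1.47 to -0.63 in all pairs but 1, the open symbol of 1450298_at at 0.0036.

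No measured member passed the test for IL-9. Of the 6 probe sets 0 were called by limma for IL-9 averaged over Dex conditions, and 1, Cd27, had an unadjusted p below 0.05. The background was 0.0958%, 13 probe sets, with 1164 at an unadjusted p below 0.05. With Dex split by number 0 of the 6 were called, against a background of 0.818%. There the same probe set, Cd27, had an adjusted p of 0.315.

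For Tnfsf14 1450298_at the IL-9 pairs differed by 0.12, 0.13, 0.18 and 0.32, all above 0, and the planned average was 0.19 ± 0.38 (95% interval -0.64 to 1.01, adjusted p = 0.930). With each array left out in turn that average was -0.26 to 0.63, below 0 without unstimulated 2 or IL-9 1, so its sign was not fixed. In 1421588_at the average was -0.26 ± 0.36 (adjusted p = 0.888), and -0.74 to 0.21 with each array left out. Tnfrsf18 pairs differed by -0.045 to 0.15, with an average of 0.060 ± 0.39 (95% interval -0.80 to 0.92), and -0.41 to 0.53 with each array left out. Cd27 signals were lower with IL-9 in 4 of 4 pairs, by -0.93 to -0.062, with an average of -0.40 ± 0.16 (95% interval -0.74 to -0.057, adjusted p = 0.516). The difference of -0.93 is against Dex 2, and without that array the average was -0.29. The average of Ltb was -0.31 ± 0.16 (adjusted p = 0.633) and that of Tnfrsf4 -0.16, and neither was called.

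Other genes of the family and of its signalling were described from lists, with 1 probe set per gene, that of the highest mean level. Calls and counts for these lists do not cover further probe sets of the same genes. Of 14 other ligands 10 were on the array and 4 passed the filter, Tnfsf11 (RANKL), Tnfsf9 (the ligand of 4-1BB), Eda and Tnf. None of the 4 was called by limma in any of the 6 comparisons, and across them 0 or 1 had an unadjusted p below 0.05. With Dex in number 2 their median was -0.17, with 0.059 for Tnfsf11 and -0.52 for Eda (adjusted p = 0.366). With CCL1 their median was -0.30, with -0.68 for Eda (adjusted p = 0.503).

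Of 23 other receptors 20 were on the array and 10 passed, among them Tnfrsf1a (the main TNF receptor), Tnfrsf8 (CD30), Tnfrsf19 and Tnfrsf21 (death receptor DR6). None was called, and 0 to 2 had an unadjusted p below 0.05 in a comparison. Their median with Dex in number 2 was -0.020. Tnfrsf21 was at 0.65 in number 2 minus number 1 without Dex (adjusted p = 0.0955), and Tnfrsf1a at -0.49 with CCL1 (adjusted p = 0.766). Of 18 adaptors and genes of death signalling 14 were on the array and 13 passed, among them Siva1, Casp8, Bid and Birc3. None was called, and 0 to 2 had an unadjusted p below 0.05. With Dex in number 2 the difference of Birc3, an inhibitor of apoptosis that binds TRAF2, was 0.52 (adjusted p = 0.200), and that of Casp8, the caspase next to Fas, -0.25 (adjusted p = 0.533).

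Of 14 NF-kB subunits and feedback genes 11 were on the array and passed, and 1, Nfkbia, was called. Nfkbia encodes the inhibitor that holds NF-kB in the cytoplasm and is known to rise with glucocorticoids. The signals of its probe set 1420088_at in the arrays numbered 2 were 494, 341 and 379 without Dex, in unstimulated, IL-9 and CCL1 cells, and 896, 715 and 570.2 with Dex. In the arrays numbered 1 they were 893, 779 and 624 without Dex and 743, 599.7 and 564 with Dex. Its 3 arrays without Dex numbered 2 were thus the lowest of the 12, as for Tnfsf14 1450298_at and Tnfrsf18. The Dex difference in number 2 was 0.90 ± 0.12 (adjusted p = 0.00472), and the effects of Dex differed by 1.16 between the numbers (adjusted p = 0.00897). Of its other probe sets, 1448306_at was called in number 2 (0.80, adjusted p = 0.0261), and 1449731_s_at (0.69, adjusted p = 0.0526) and 1420089_at (0.17, adjusted p = 0.776) were not. None of these 3 was called for the difference between the numbers (0.90, 0.90 and 0.20, with adjusted p of 0.109, 0.107 and 0.813), so that call rests on 1 of 4 probe sets. Ikbkb, a kinase that marks the inhibitors for destruction, was at 0.22 with Dex in number 2, the subunit Rela at 0.11 and the inhibitor Nfkbib at -0.21, and none was called. With IL-9 and with CCL1 0 of the 11 were called by limma and 0 had an unadjusted p below 0.05.

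The genes whose log2 levels over the 12 arrays were most like those of the called members were found by Pearson's r, which is given as a description only, since the arrays fall into separate clusters by Dex and number. For Tnfsf14 1450298_at they were B4galt4 (r = 0.933), Auh (0.926), Nrg4 (0.916) and Dusp1 (0.914). For Tnfsf14 1421588_at they were Srgn (0.961), D17H6S56E-5 (0.954), Nrg4 (0.944) and Dusp1 (0.943). For Tnfrsf18 they were Gadd45a (0.945), Dusp1 (0.940), Ubr7 (0.920) and Zfp36l2 (0.917). Dusp1, a phosphatase of MAP kinases on the list of glucocorticoid targets, was thus among the 4 most alike for all 3 probe sets. The other measured targets, Tsc22d3, Fkbp5, Per1 and Ddit4, were not among the 4 most alike for any of them. Between the members, r was 0.893 for the pair of Tnfsf14 probe sets, and Tnfrsf18 had 0.824 with 1421588_at and 0.820 with 1450298_at.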

How the data were processed

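RNA was hybridised to 12 arrays. The deposited values were linear MAS5 signal intensities (submitters' processing notes), in tables of 11 and 1 arrays. In each table the mean after trimming 2% at each end was 100.04 to 100.05, a scaling that hides a change of all genes in 1 direction. The version of MAS5 is not given in the sources used here. Array number limits the precision.

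Signals were transformed as log2(signal + 16), and probe sets above the 40th percentile of mean level were kept (13575). Of all probe sets, 20393 were annotated with 1 symbol, 691 with several and 1606 with no symbol. Models were fitted to 11 arrays in limma 3.58.1 (R 4.3.3) with an intensity trend, and p-values adjusted by Benjamini-Hochberg. Dex was fitted within each number, with terms for IL-9, CCL1 and number (5 residual degrees of freedom), and IL-9 and CCL1 with 1 mean per group (5 residual). CCL1 2, of the smaller table and another platform record, was left out of tests. Alternatives covered pseudocount, filter, normalization, trend, blocking and omitted arrays, and the models were tested on simulated data. Members whose probe set was called got full statistics. Other genes came from lists, each read by its probe set of highest mean level, and were named where called or among the 4 highest in mean level. Members, lists and the comparison of Dex within each number were chosen with earlier results of these data known.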

Additional observations from a re-analysis of the deposited data

Results flagged for a closer look

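The difference between arrays labelled with and without Dex was itself different between the array numbers for 2 probe sets, by a test of that difference. For Tnfsf14 1450298_at it was larger in number 2 by 1.79 log2, and for Tnfrsf18 1422303_a_at by 1.75 log2. Glucocorticoid targets differed between the numbers in the same arrays (in the arrays labelled without Dex their mean centred level was 0.186 to 0.505 in number 1 and -0.951 to -0.835 in number 2), and their part in the result was not tested. In number 1, 0 of 13575 probe sets were called by limma for Dex, with 339 at an unadjusted p below 0.05. In the arrays labelled with Dex, the mean centred level of these targets was 0.189 to 0.413 in number 1 and 0.143 to 0.475 in number 2. For these targets the gap between the numbers thus lay in the arrays labelled without Dex. Whether those numbered 1 came from cells exposed to Dex was not tested and cannot be told from the files.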

How the results depend on the processing

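With 1 mean per group, which averages Dex over the numbers and also drops the number term (no replicate block), 0 of the 6 probe sets were called for Dex, with values of 0.55 and 0.28 for Tnfsf14 and 0.22 for Tnfrsf18.  With CCL1 2 added, 0 were called for the difference between the Dex effects. With 1 array left out in turn that count was 0 to 2, against 2 to 3 for Dex in number 2 and for number 2 minus number 1 without Dex. For CCL1, 1 was called with Dex split by number, an alternative added after the data were seen. In no alternative did a value change sign while called. The CCL1 average could not be fitted without CCL1 1.

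Counts over all probe sets moved more. For Dex in number 2 the 81 calls became 0 in that average over both numbers, 44 with no filter, 33 without the arrays labelled without Dex and numbered 1 (added later), and 29 to 116 with 1 array left out. For the difference between Dex effects 28 became 15 to 44 with 1 array left out. For number 2 minus number 1 without Dex 108 became 199 with CCL1 2 added, 65 with no filter and 46 to 217 with 1 array left out. For IL-9, 13 became 3 within Dex-treated cells, 49 with the replicate block and CCL1 2 added, 111 with Dex split by number and 5 to 358 with 1 array left out. For CCL1, 1 became 3 with CCL1 2 added, 21 with the block as well, 44 with Dex split by number, 2 without the arrays labelled without Dex and numbered 1, and 1 to 66 with 1 array left out. The cause was not tested.

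With the replicate number as a block, 0 of the 6 were called for IL-9 or CCL1 (Tnfsf14 1450298_at with CCL1 -0.80, adjusted p = 0.768). The numbers were checked for pairing. Differences of number 2 minus number 1 correlated at 0.24 between groups without Dex, at 0.18 to 0.31 between Dex groups and at -0.0051 to 0.14 between 1 of each. Groups of the same Dex label thus deviated together, while not every pair was over 0.1. The planned IL-9 and CCL1 tests did not treat the numbers as pairing the arrays, so this shared deviation within a Dex label counted as spread in them. The Dex tests held a term for number, and the differences of pairs with 1 number are given as values. Signals near the filter limit what Cd27 and the 7 probe sets below it can show.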
